A study of Mus musculus with 15 samples.

Results

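The 8 genes described here encode the interleukin-1 and interleukin-18 ligands, their antagonists and the chains of the interleukin-1 receptor. They were taken from the count table by symbol, and all 8 were found among its 78317 gene identifiers. They are *Il1a* (ENSMUSG00000027399), *Il1b* (ENSMUSG00000027398), *Il18* (ENSMUSG00000039217), *Il1rn* (ENSMUSG00000026981), *Il18bp* (ENSMUSG00000070427), *Il1r1* (ENSMUSG00000026072), *Il1rap* (ENSMUSG00000022514) and *Il1r2* (ENSMUSG00000026073). Of these, 6 passed the filter on low counts that 16654 genes passed, and *Il18bp* and *Il1r1* did not. *Il1a* passed only through the M1 libraries, so its difference between M1 and the other groups followed from the filter and is given as a level.

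Transcripts were counted in MH-S, a mouse alveolar macrophage line transformed with SV40, in 5 groups of 3 wells each, and all groups were kept in RPMI with fetal calf serum for 24 h. M0 cells received nothing further, M1 cells both IFN-γ (20 ng/mL) and LPS (1 µg/mL), and M2 cells 20 ng/mL IL-4. The remaining groups received microrods of calcium phosphate (CaP-Alg-Prot/CMC(3DL), called CaP) or of silica (SiO2-Alg-Prot/CMC(3DL), called SiO2) at 0.1 mg/mL, rod-shaped carriers held together by alginate, protamine and carboxymethyl chitosan. Each microrod well held a particle batch of its own and all wells held 1 cell passage of this single line, so p-values measure the spread between wells and batches and not between passages or animals.

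IL-1α and IL-1β bind the same receptor chain, IL-1R1, which signals after the accessory chain IL-1RAP joins it. The receptor antagonist encoded by *Il1rn* occupies IL-1R1 without signalling, the decoy receptor IL-1R2 binds ligand without signalling, and the IL-18 binding protein encoded by *Il18bp* holds IL-18 in solution. Macrophages are a main source of these ligands, and IL-1β and IL-18 are made as precursors that inflammasome caspases cut, so a transcript level does not give the amount of active cytokine.

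The total count per library lay between 8459643 and 68750050, and levels are given as CPM, a gene's counts relative to the scaled size of its library. General macrophage markers were abundant: 6 or 7 of 7 had more than 3 counts in at least 1 library of every group, and their summed level ran from 1417 to 3626 CPM. The line showed little of the alveolar signature of its label, since the 7 alveolar macrophage markers summed to 3.00 to 6.18 CPM in any library, with *Chil3* at 0 in M0, M1, CaP and SiO2, *Car4* at 0 in M0 and SiO2 and *Marco* at 0 in SiO2. The 12 markers of other cells (epithelial, stromal, lymphoid and granulocyte genes among them) summed to at most 2.60 CPM. In RNA from whole wells, fewer cells that express a gene and less of its RNA per cell cannot be told apart.

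*Il1a*, *Il1b* and *Il1rn* lie on chromosome 2 and were the members that stood highest in M1 against M0, so their promoters are shown. RefSeq (build GRCm38.p6) lists 11 start sites for the 8 genes, and the 250 bases before 4 of them are printed 5′ to 3′ on the gene's strand, in order chr2:129309973-129310222 (minus strand), chr2:129371140-129371389 (minus), chr2:24336610-24336859 (plus) and chr2:24345041-24345290 (plus). Capitals mark a match to any of 5 motifs searched on both strands.
Il1a: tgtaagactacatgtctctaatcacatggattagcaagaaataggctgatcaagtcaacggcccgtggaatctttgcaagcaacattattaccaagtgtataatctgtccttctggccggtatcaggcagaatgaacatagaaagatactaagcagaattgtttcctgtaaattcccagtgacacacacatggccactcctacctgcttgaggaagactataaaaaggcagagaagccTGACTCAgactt
Il1b: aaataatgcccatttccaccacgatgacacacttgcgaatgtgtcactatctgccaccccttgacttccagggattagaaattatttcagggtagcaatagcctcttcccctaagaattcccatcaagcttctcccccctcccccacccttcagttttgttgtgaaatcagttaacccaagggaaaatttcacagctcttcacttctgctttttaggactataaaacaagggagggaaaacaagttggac
Il1rn, window 1: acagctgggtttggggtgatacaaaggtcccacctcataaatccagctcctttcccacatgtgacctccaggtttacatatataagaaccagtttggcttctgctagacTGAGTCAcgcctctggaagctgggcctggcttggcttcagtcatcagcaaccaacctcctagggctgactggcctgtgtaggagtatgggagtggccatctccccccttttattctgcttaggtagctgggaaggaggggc
Il1rn, window 2: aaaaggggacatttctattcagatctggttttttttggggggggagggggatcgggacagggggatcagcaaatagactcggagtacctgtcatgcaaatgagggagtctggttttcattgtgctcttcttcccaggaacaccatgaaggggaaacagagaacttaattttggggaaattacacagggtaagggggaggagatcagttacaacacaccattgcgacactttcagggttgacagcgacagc
The only matches in these windows were to the AP-1 motif TGANTCA, 12 to 6 bases before the start of *Il1a* and 141 to 135 bases before the first start of *Il1rn*. This motif occurred in 6.75% of the 32807 windows of that length in the table, the C/EBP motif TTGCNNAA in 9.57%, the GAS motif TTCNNNGAA in 7.02%, the interferon-stimulated response element in 2.97% and the NF-κB consensus in 7.25%. Among the 11 windows of the 8 genes, 2 held AP-1, 2 held C/EBP (*Il18bp* and the first window of *Il1r1*), 1 held GAS (*Il1r2*), 1 held the NF-κB consensus (the second window of *Il1r1*) and none held the interferon element. All 250 bases of the *Il18bp* window and 117 of the *Il1r2* window lay in annotated exons, so these windows are wholly or partly transcribed sequence. No binding was measured, and a match says only that the letters are present.

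Of the ligands, *Il1a* and *Il1b* were abundant in M1 alone among the 5 groups, while *Il18* was present in every group at 8.97 to 27.6 CPM. *Il1a*, which encodes the ligand that is active as its precursor, had 378, 548 and 379 counts in the M1 libraries, or 35.6 ± 2.70 CPM (SD, n = 3). It had 0 counts in each M0 library, 0, 0 and 1 in M2, 2, 0 and 3 in CaP, and 3, 1 and 5 in SiO2. All groups but M1 were thus at or close to 3 counts per library, the number taken as the floor here. Set against that floor, the M1 level was at least 172-fold higher than M0 and at least 166-fold higher than M2, and the CaP level was at least 320-fold lower than M1.

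*Il1b*, the inducible inflammasome substrate, had 31, 17 and 11 counts in M0 and 4176, 6219 and 4627 in M1. That is 0.817, 1.11 and 1.27 CPM in M0 against 359, 425 and 450 CPM in M1. The M1 libraries all lay far above M0, at 412 times its level (log2 fold change 8.69, standard error or SE 0.51, adjusted p = 8.97e-08 from edgeR's quasi-likelihood test with Benjamini-Hochberg adjustment over all genes tested). M2 had 0.887, 1.32 and 0.615 CPM and CaP 0.697, 1.18 and 1.27 CPM, both overlapping M0. Against M0 the log2 fold change of *Il1b* was -0.33 (95% interval -1.59 to 0.93) in M2 and 0.04 (-1.11 to 1.18) in CaP, and neither passed the test.

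In SiO2, *Il1b* had 2.54, 2.80 and 0.436 CPM. Of these libraries 2 lay above all M0 libraries and 1 below all of them, and the log2 fold change of 0.87 (-0.27 to 2.01, adjusted p = 0.736 from edgeR) did not pass the test. In CaP against SiO2 it was -0.83 (-1.88 to 0.22). The order of the *Il1b* levels was M1, SiO2, M0, CaP and M2, in which only M1 differed from its neighbour by the test. The antisense gene *Il1bos*, which overlaps *Il1b*, reached at most 0.860 CPM in any library, and reads of overlapping genes cannot be told apart where strand is not counted.

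*Il18*, whose precursor is made without a stimulus in many cells, had 24.0, 20.8 and 27.6 CPM in M0 and 24.7, 19.6 and 18.6 CPM in M1. The groups overlapped, and the M1 log2 fold change was -0.20 (95% interval -0.76 to 0.36). CaP had 19.7, 16.2 and 16.0 CPM and SiO2 18.3, 18.5 and 18.7 CPM, each library below the lowest of M0. The log2 fold changes of -0.47 (-1.02 to 0.08, adjusted p = 0.383) in CaP and -0.38 (-0.93 to 0.17, adjusted p = 0.769) in SiO2 did not pass edgeR's test.

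M2 had 9.76, 20.3 and 8.97 CPM of *Il18*, all below M0, with a log2 fold change of -0.94 (SE 0.26, adjusted p = 0.0656 from edgeR, 0.0347 from DESeq2). M2 replicate 2 stood apart from the other 2 libraries, and without it the value was -1.36 (adjusted p = 0.00126 from edgeR). This library held 8594947 counts and had a scaling factor of 0.885, the lowest of the 15 libraries, and the part of either in the result was not tested. The order of the *Il18* levels was M0, M1, SiO2, CaP and M2, with no neighbours that differed by the test. *Bco2*, which overlaps *Il18* on the other strand, had 7.10 to 12.7 CPM over all libraries.

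**Figure D1:**
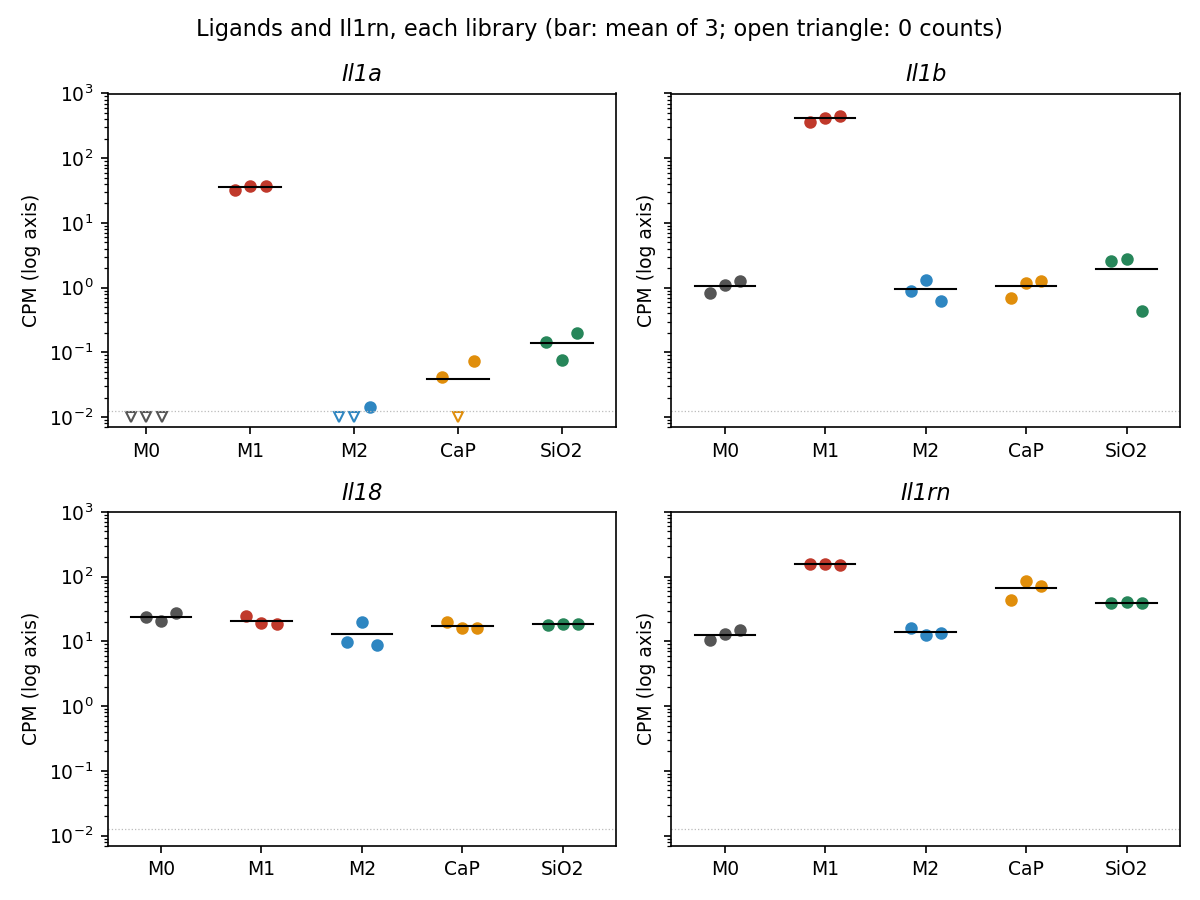
Level of the 3 ligand genes and *Il1rn* in each library, in CPM on a log axis, by group; points are libraries, bars are the mean of 3, and open triangles at the foot of the axis stand for libraries with 0 counts. *Il1a* and *Il1b* stand high in M1 only, at 35.6 and 411 CPM, *Il18* means run from 13.0 to 24.1 CPM, and *Il1rn* stands at 155 CPM in M1, 67.0 in CaP and 39.3 in SiO2 over 12.8 in M0.

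Among the antagonists, *Il1rn* was the only member called against M0 with either microrod. It had 10.4, 13.0 and 14.9 CPM in M0 and 44.0, 84.5 and 72.6 CPM in CaP. Every CaP library lay above every M0 library, with a log2 fold change of 2.41 (SE 0.22, 5.30-fold, adjusted p = 0.000142 from edgeR). It was the 1 member called of 6 tested in CaP against M0, where 0.654% of all genes tested were called. To be called, a gene had to change by more than 0.5 on the log2 scale in either direction with an adjusted p under 0.05. The call held in all 15 fits that left out 1 library and was lost, at adjusted p = 0.0553 from edgeR, when only the 6 libraries compared were fitted.

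The SiO2 libraries had 38.7, 40.2 and 39.1 CPM of *Il1rn*, also above every M0 library and closer together than those of CaP. The log2 fold change was 1.64 (SE 0.22, 3.11-fold, adjusted p = 0.00545 from edgeR). *Il1rn* was again the 1 member called of 6 tested, where 0.264% of all genes were called. Without M0 replicate 1, the deepest M0 library and the lowest in *Il1rn*, the value was 1.49 and the adjusted p 0.0730 from edgeR. It was 0.0723 when only the 9 M0, CaP and SiO2 libraries were fitted and 0.0660 with only the 6 compared, all with the same direction, while DESeq2 gave 1.76e-09.

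The microrods were also compared with each other, to ask whether the material mattered to these genes. The CaP libraries all lay above the SiO2 libraries in *Il1rn*, by a log2 fold change of 0.77 (95% interval 0.31 to 1.22), and edgeR gave an unadjusted p of 0.0027 and an adjusted p of 1. No member of 6 tested was called in CaP against SiO2 by edgeR or by DESeq2. An unadjusted p below 0.05 in edgeR was found for 2 (*Il1a* and *Il1rn*), and for 277 of all 16654 genes. The *Il1a* value rests on at most 5 counts per library, in a gene that passed the filter through M1 alone. It is not read as a difference. In this comparison 0.018% of all genes were called, which was 3 genes. In *Il1b*, *Il18* and *Il1rap* the microrod groups overlapped. In *Il1r2* they did not, at 7.20 to 8.53 CPM in CaP and 6.30 to 6.96 CPM in SiO2, a log2 fold change of 0.30 (95% interval -0.34 to 0.95).

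*Il1rn* reached its highest level in M1, with 155, 155 and 153 CPM, a log2 fold change against M0 of 3.61 (SE 0.23, 12.2-fold, adjusted p = 2.17e-07 from edgeR). M2 had 16.1, 12.6 and 13.5 CPM and overlapped M0, with a log2 fold change of 0.16 (95% interval -0.32 to 0.64). The order was M1, CaP, SiO2, M2 and M0. M1 differed from CaP by the test, and SiO2 from M2, while the steps from CaP to SiO2 and from M2 to M0 did not pass it.

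Read against the other stimuli, both microrod groups lay between M2 and M1 in *Il1rn*. CaP had a log2 fold change of -1.21 against M1 (adjusted p = 0.00157 from edgeR) and of 2.25 against M2 (adjusted p = 2.62e-05). SiO2 had -1.98 against M1 (adjusted p = 3.41e-05 from edgeR) and 1.48 against M2 (adjusted p = 0.00108).

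Because both genes are counted in the same library, the ratio of *Il1rn* to *Il1b* does not depend on how libraries are scaled. In M0 there were 12.7, 11.8 and 11.7 *Il1rn* counts per *Il1b* count, and in M1 0.432, 0.365 and 0.341, so *Il1b* counts exceeded *Il1rn* counts in the M1 libraries only. CaP had 63.1, 71.4 and 57.2 and M2 18.2, 9.60 and 21.9. SiO2 had 15.2, 14.4 and 89.6, of which the highest came from the library with 11 *Il1b* counts.

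On the log2 scale, with 0.5 added to each count, the mean ratio was 3.55 ± 0.08 (SD, n = 3) in M0, -1.40 ± 0.18 in M1, 3.92 ± 0.64 in M2, 5.97 ± 0.15 in CaP and 4.72 ± 1.47 in SiO2. The difference from M0 was -4.96 in M1, 2.41 in CaP and 1.17 in SiO2, each without overlap between the libraries and each at p = 0.1 in an exact two-sided permutation test, the smallest p that 3 against 3 libraries can give. Without SiO2 replicate 3 the SiO2 difference was 0.32, against up to 1.62 without another library, while those of M1 and CaP stayed within -5.05 to -4.88 and 2.34 to 2.49. M2 overlapped M0, with a difference of 0.37 (exact permutation p = 0.4, 0.11 without M2 replicate 3 to 0.73 without M2 replicate 2).

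**Figure D2:**
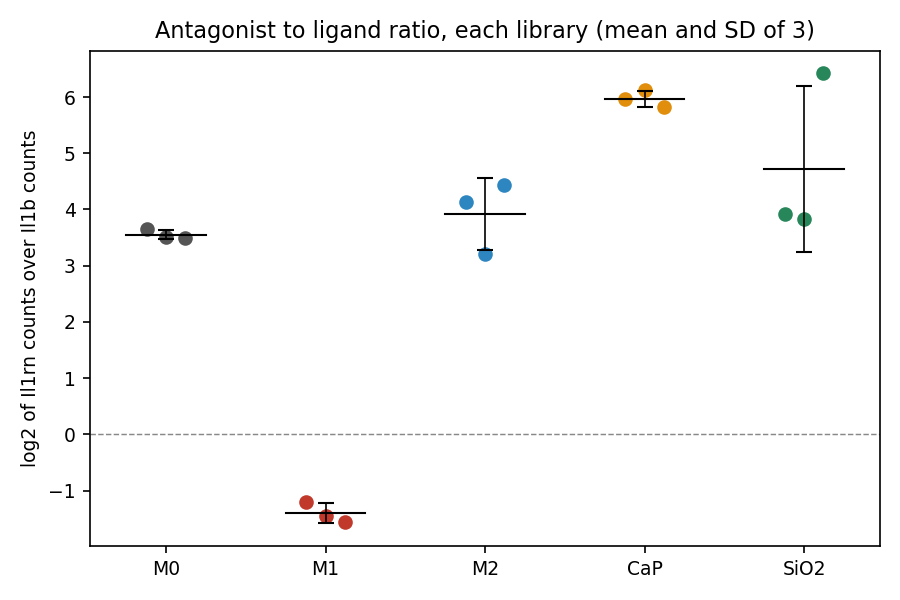
Log2 ratio of *Il1rn* to *Il1b* counts in each library by group; points are libraries, the long bar is the mean, the whiskers are 1 SD (n = 3), and the dashed line marks equal counts. M1 lies below the line at -1.40, CaP stands highest at 5.97, and SiO2 is spread from 3.83 to 6.42.

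*Il18bp*, the soluble antagonist of IL-18, was close to the limit of detection. It had 18, 8 and 1 counts in M0, 3, 5 and 6 in M1, 5, 6 and 18 in M2, 12, 1 and 8 in CaP, and 4, 1 and 2 in SiO2. All groups overlapped M0 in CPM and their means ran from 0.117 CPM in SiO2 to 0.463 CPM in M2, and no difference was detectable at this depth. Per *Il18* count there were 0.00420 to 0.0250 *Il18bp* counts in M0 and 0.0287 to 0.0390 in M2. The log2 ratio in M2 was 1.27 above M0 without overlap (exact two-sided permutation p = 0.1, the smallest possible), on 29 *Il18bp* counts in all 3 M2 libraries. Without M0 replicate 3, which held 1 *Il18bp* count, this difference was 0.64. The other differences from M0 were 0.41 in M1, -0.57 in CaP and -1.04 in SiO2, each with overlap, and without that library they were -0.22, -1.19 and -1.67. Without M0 replicate 2 they were 0.82, -0.16 and -0.63, and after thinning the CaP value was -1.96.

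Of the receptor genes, the signalling chain was nearly undetected and the decoy was the most abundant. *Il1r1* had 0 counts in every M0 and SiO2 library, 1, 1 and 0 in M1, 2, 1 and 0 in CaP, and 0, 0 and 9 in M2. The count of 9 came from the deepest library of the series. Taking 3 counts as the most that a count of 0 allows, M0 could hold up to 0.0790 to 0.347 CPM, depending on the library, and no fold was computed.

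*Il1rap*, the accessory chain shared by the receptors for IL-1, IL-33 and IL-36, had 75, 23 and 15 counts in M0, a mean of 1.74 ± 0.240 CPM (SD, n = 3) with a highest value of 1.98 CPM, and 4.71, 5.13 and 3.36 CPM in M2. Every M2 library lay above every M0 library. The log2 fold change was 1.25 (SE 0.30, 2.37-fold, adjusted p = 0.0324 from edgeR, 0.00490 from DESeq2). *Il1rap* was the 1 member called of 6 tested in M2 against M0, where 4.13% of all genes were called. The call was kept in 11 of 15 fits without 1 library and lost without any 1 of the M0 replicates or without M2 replicate 1 (adjusted p up to 0.107 from edgeR, values from 1.15 to 1.46 over the 15 fits). It was also lost after thinning (adjusted p = 0.0556) and with only the 6 libraries compared (0.177). The 7 macrophage markers summed to 1417 to 2164 CPM in M2 and 2681 to 3626 CPM in M0. Mean *Lyz2* went from 1847 CPM in M0 to 368 CPM in M2, and *Ptprc* from 142 to 93.6 CPM. *Cd68* went from 979 to 954 CPM, *Csf1r* from 165 to 160 and *Fcgr1* from 16.6 to 11.8. *Adgre1* rose from 61.8 to 195 CPM and *Mertk* from 0.169 to 0.458 CPM. The part of these shifts in the M2 results was not tested.

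M1 had 3.27, 2.80 and 1.75 CPM of *Il1rap* and overlapped M0, with a log2 fold change of 0.57 (95% interval -0.13 to 1.26). CaP had 1.27, 2.17 and 1.67 CPM and SiO2 2.10, 1.29 and 2.22 CPM, both overlapping M0. Against M2 the log2 fold change was -1.37 in CaP (adjusted p = 0.0121 from edgeR) and -1.13 in SiO2 (adjusted p = 0.0490). The CaP call was lost without M2 replicate 1, CaP replicate 1 or CaP replicate 3 (adjusted p up to 0.0552 from edgeR) with only the 6 libraries compared (0.121) and after thinning (0.0578). The SiO2 call was kept in 3 of 15 fits without 1 library, with adjusted p up to 0.198, and was lost without any 1 of the M0 or SiO2 replicates, M1 replicate 1 or 2, M2 replicate 1 or 2, or CaP replicate 2 or 3. Of 8 other settings, it was kept in 2. In SiO2 against M2, *Il1r2* (log2 fold change -1.10, adjusted p = 0.0716 from edgeR) was called by DESeq2 (0.0173) and with no filter (0.0361). Against M2, 2 members of 6 were called for CaP, *Il1rn* higher and *Il1rap* lower, where 4.46% of all genes were called. The same 2 members were called for SiO2, where 3.65% of all genes were called.

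*Il1r2*, the decoy receptor, had 7.74, 6.57 and 7.64 CPM in M0 and 4.38, 2.32 and 3.11 CPM in M1. All M1 libraries lay below M0 (log2 fold change -1.17, SE 0.34, adjusted p = 0.0339 from edgeR, 0.0104 from DESeq2). The call was kept in 10 of 15 fits without 1 library. It was lost without any 1 of the M0 replicates or without M1 replicate 2 or 3, with values from -1.45 to -0.96 over the 15 fits and adjusted p up to 0.151. It was also lost when every library was thinned to the size of the smallest (adjusted p = 0.0563 from edgeR).

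With *Il1r2*, 4 members of 6 tested were called in M1 against M0 (*Il1a*, *Il1b* and *Il1rn* higher, *Il1r2* lower), where 14.1% of all genes were called. *Il1a* had to be among them by the filter.

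In M2, *Il1r2* had 12.8, 22.5 and 8.39 CPM, all above M0, and M2 replicate 2 was again the highest. The log2 fold change of 0.93 (95% interval 0.28 to 1.59, adjusted p = 0.116 from edgeR) did not pass the test. Without M2 replicate 2 it was 0.50 and without M2 replicate 3, the lowest of the group, it was 1.25 (adjusted p = 0.0282 from edgeR). CaP had 8.53, 8.48 and 7.20 CPM and SiO2 6.36, 6.96 and 6.30 CPM, both overlapping M0, with log2 fold changes of 0.14 (-0.51 to 0.78) and -0.17 (-0.83 to 0.50). The order was M2, CaP, M0, SiO2 and M1, with no neighbours that differed by the test.

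Between M1 and M2 the log2 fold change of *Il1r2* was -2.11, with M1 the lower (edgeR adjusted p = 0.000620), a call kept in all 15 fits without 1 library. In that comparison 4 members of 6 were called, the same 3 higher in M1 and *Il1r2* lower, where 16.1% of all genes were called. In CaP against M1, 4 members were called, *Il1a*, *Il1b* and *Il1rn* lower and *Il1r2* higher by 1.31 (adjusted p = 0.0181 from edgeR, lost without M1 replicate 2 or 3), where 12.7% of all genes were called. In SiO2 against M1 the same 3 were lower, where 10.5% of all genes were called, and *Il1r2* had a log2 fold change of 1.01 (adjusted p = 0.0797 from edgeR, 0.0372 from DESeq2, which called it, as did the fit of only the 6 libraries). *Il1a* had to be among the members called in each of these comparisons, since it passed the filter only through M1. These comparisons share the M1 libraries, and the 4 against M0 share the M0 libraries.

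**Figure D3:**
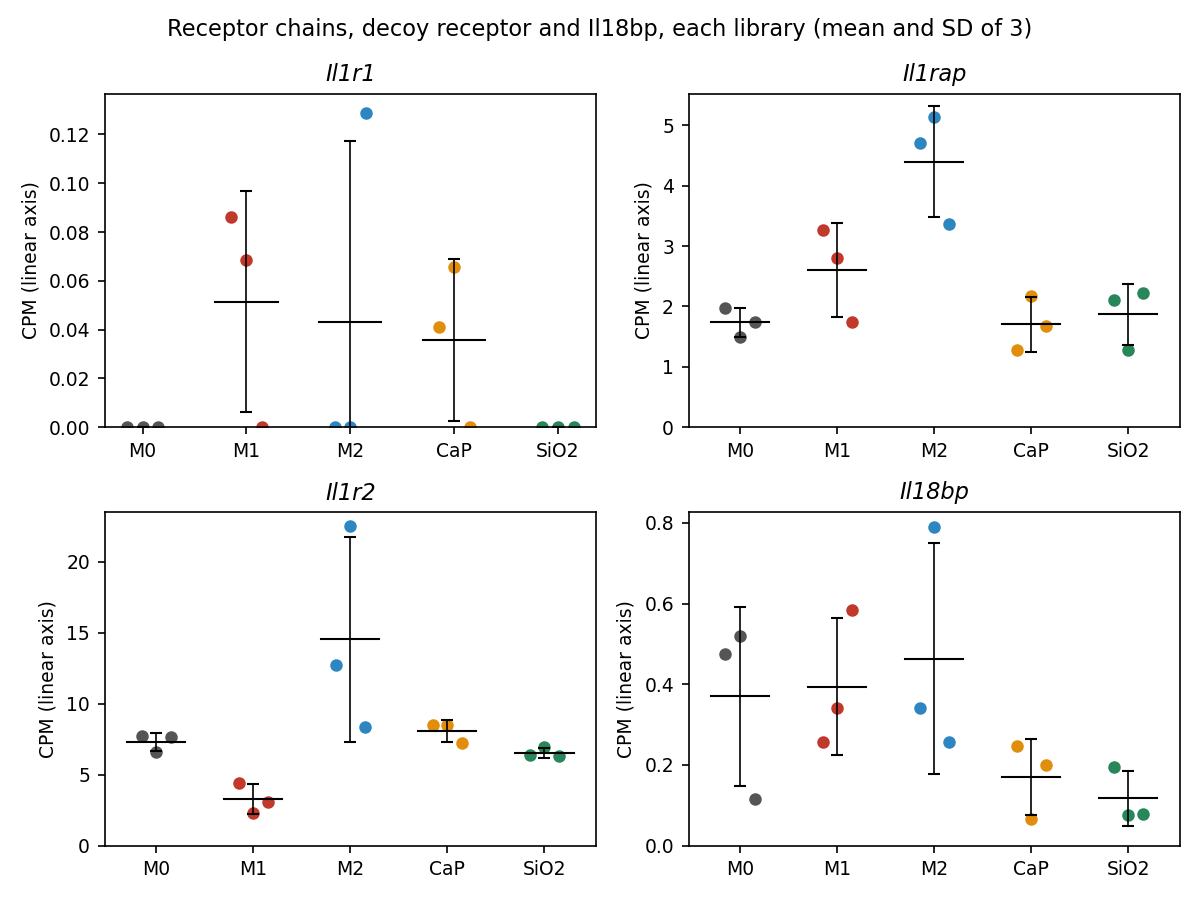
Level of the receptor genes *Il1r1*, *Il1rap* and *Il1r2* and of *Il18bp* in each library, in CPM on linear axes that differ between panels; points are libraries, with the mean and 1 SD of 3. *Il1r1* reaches at most 0.129 CPM, *Il1rap* is highest in M2 at 4.40 CPM, and *Il1r2* runs from 3.27 CPM in M1 to 14.6 CPM in M2.

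**Figure D4:**
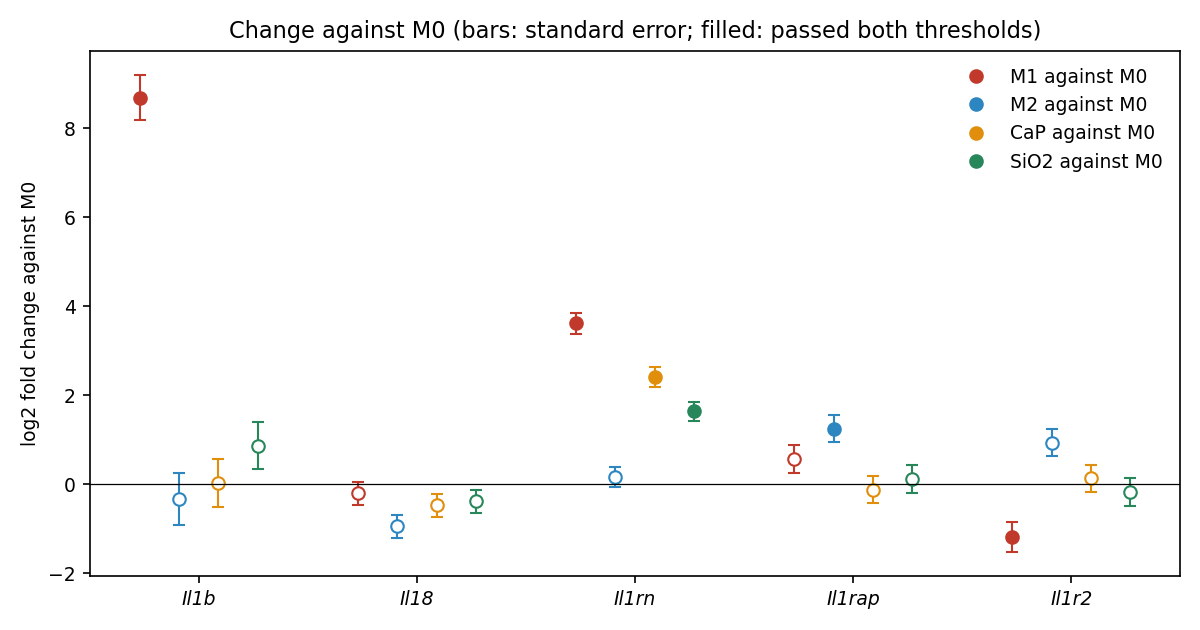
Log2 fold change against M0, on the vertical axis, of the 5 members other than *Il1a* that passed the filter, by comparison; bars are standard errors and filled points passed both thresholds. *Il1rn* is filled in M1, CaP and SiO2 (3.61, 2.41 and 1.64), and with either microrod no other member is.

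To set the genes beside each other, CPM were divided by the length of all exons of a gene in kilobases. In M0 *Il18* was the most abundant transcript of the 8 at 23.4 CPM per kilobase, followed by *Il1r2* at 3.84, *Il1rn* at 2.31, *Il1b* at 0.559, *Il1rap* at 0.153 and *Il18bp* at 0.122. In M1 *Il1b* led at 216 CPM per kilobase, ahead of *Il1rn* at 28.0, *Il18* at 20.3 and then *Il1a*. In CaP *Il18* still led at 16.8 CPM per kilobase with *Il1rn* at 12.1 and *Il1r2* at 4.23, and in SiO2 the values were 17.9, 7.10 and 3.43. In M2 *Il18* had 12.6, *Il1r2* 7.63 and *Il1rn* 2.54 CPM per kilobase. The decoy was thus above the antagonist in M0 and M2 and below it in M1, CaP and SiO2 on this scale, on means whose difference between genes was not tested. The order in M0 depended on the division by length, with 5535 exon bases for *Il1rn* and 1908 for *Il1r2*. In plain CPM the M0 means were 12.8 for *Il1rn* and 7.32 for *Il1r2*, and those in M2 14.1 and 14.6.

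The other genes of the pathway were counted in 5 lists of 56 genes, of which 43 passed the filter. In M1 against M0, 13 were higher and 1 was lower, with a median log2 fold change of 0.44 beside -0.01 over all 16654 genes, of which 1615 were higher and 727 lower (14.1% called). Of the 13, *Il6*, *Lcn2*, *Ptgs2* and *Il36g* passed the filter only through the M1 libraries and so had to differ, as *Il1a* did. The list of target genes, transcripts that IL-1 or IL-18 are known to raise and that LPS raises too, held 9 of the 13, with 10 tested, and its median of 3.65 includes 3 of these 4 genes. *Il6*, an acute-phase cytokine, had 53.6, 45.5 and 55.0 CPM in M1 and at most 2 counts in M0, so it was at least 248-fold higher. *Lcn2*, an iron-scavenging defence protein, was 9.44 higher on the log2 scale and *Ptgs2*, the inducible cyclooxygenase, 7.87 higher. In M0 these had at most 6 and 4 counts per library.

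In the signalling list 3 of 16 tested were higher in M1, where 14.1% of all genes were called in either direction. They were *Irak3*, an inhibitory member of the IRAK family (9.20 ± 2.79 to 78.7 ± 5.39 CPM, SD, n = 3), *Peli1*, a ubiquitin ligase that acts on IRAK proteins (15.6 to 41.8 CPM), and *Ikbkg*, the regulatory subunit of the IKK complex (23.9 to 46.0 CPM). Of the other receptor chains, 3 of 7 passed the filter, and *Sigirr*, an inhibitory receptor of the family, was lower in M1, at 14.9, 15.5 and 16.9 CPM against 20.3, 26.2 and 27.0 in M0 (log2 fold change -0.63, adjusted p = 0.0356 from edgeR). The *Sigirr* call was kept in 9 of 15 fits without 1 library and lost without M0 replicate 2 or 3, any 1 of the M1 replicates or SiO2 replicate 1 (adjusted p up to 0.109 from edgeR), and also with no filter or with only the 6 libraries compared. Among the 6 other ligands only *Il36g*, an epithelial and macrophage cytokine, passed the filter, through M1 alone, with 18, 27 and 9 counts there and 0 in M0, or at least 6.87-fold higher. None of the 13 processing and release genes was called in M1 by edgeR or DESeq2. Of the 13, 4 had an unadjusted p below 0.05 in edgeR, as did 4609 of all 16654 genes.

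In M2, 1 of the 43 was higher and 3 were lower, where 4.13% of all genes were called, with a median of -0.05 beside 0.07 over all genes. The 3 were target genes, and the 2 that fell furthest were *Saa3*, an acute-phase protein (28.2 ± 7.06 to 1.14 ± 0.222 CPM, SD, n = 3), and *Nfkbiz*, an inducible nuclear IκB protein (4.51 ± 1.56 to 1.44 ± 0.122 CPM). The third, *Nfkbia*, an inhibitor of NF-κB that the naming rule did not select, had a log2 fold change of -0.64 (adjusted p = 0.0402 from edgeR), and its call was kept in 3 of 15 fits without 1 library, those without M0 replicate 1, M1 replicate 1 or CaP replicate 1. The gene that was higher was *Serpinb1a*, an inhibitor of neutrophil serine proteases that is also ascribed a restraint on inflammatory caspases, with 0.381 ± 0.0871 CPM in M0 and 1.72 ± 0.584 CPM in M2 (adjusted p = 0.00180 from edgeR). With only the 6 libraries compared, the *Nfkbiz*, *Nfkbia* and *Serpinb1a* calls were lost.

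The same gene marked the CaP group. *Serpinb1a* had 11, 6 and 4 counts in M0, 435, 135 and 379 in CaP, and 17, 12 and 14 in SiO2. The CaP level of 9.08 ± 0.316 CPM (SD, n = 3) was 4.70 above M0 on the log2 scale (SE 0.30, adjusted p = 3.26e-07 from edgeR) and 3.61 above SiO2 (SE 0.26, adjusted p = 2.19e-06). Both calls were kept in all 15 fits without 1 library. M1 had 2, 1 and 1 counts, so the CaP level also lay above every library of M1 and M2.

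The other pathway gene called in CaP against M0 was *Cxcl2*, a neutrophil chemokine, with 2.17, 1.97 and 2.77 CPM against 0.764, 0.455 and 0.927 in M0. Its log2 fold change of 1.72 had an adjusted p of 0.0427 from edgeR and 0.000970 from DESeq2, and the call was kept in 2 of 15 fits without 1 library, those without M1 replicate 1 or M2 replicate 2, with adjusted p up to 0.271. It was also lost after thinning, with only the 6 libraries compared, with only the 9 M0, CaP and SiO2 libraries and with the older form of edgeR's quasi-likelihood test, an alternative chosen after seeing the data. With 2 of 43 called in CaP, where 0.654% of all genes were called, the median was 0.07 beside 0.06 over all genes. In SiO2, where 0.264% of all genes were called, none of the 43 was called by edgeR or DESeq2. Their median was 0.12 beside -0.02 over all genes. An unadjusted p below 0.05 in edgeR was found for 8 of the 43 and for 1361 of all 16654 genes. In CaP against SiO2 *Serpinb1a* was the only one called.

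**Figure D5:**
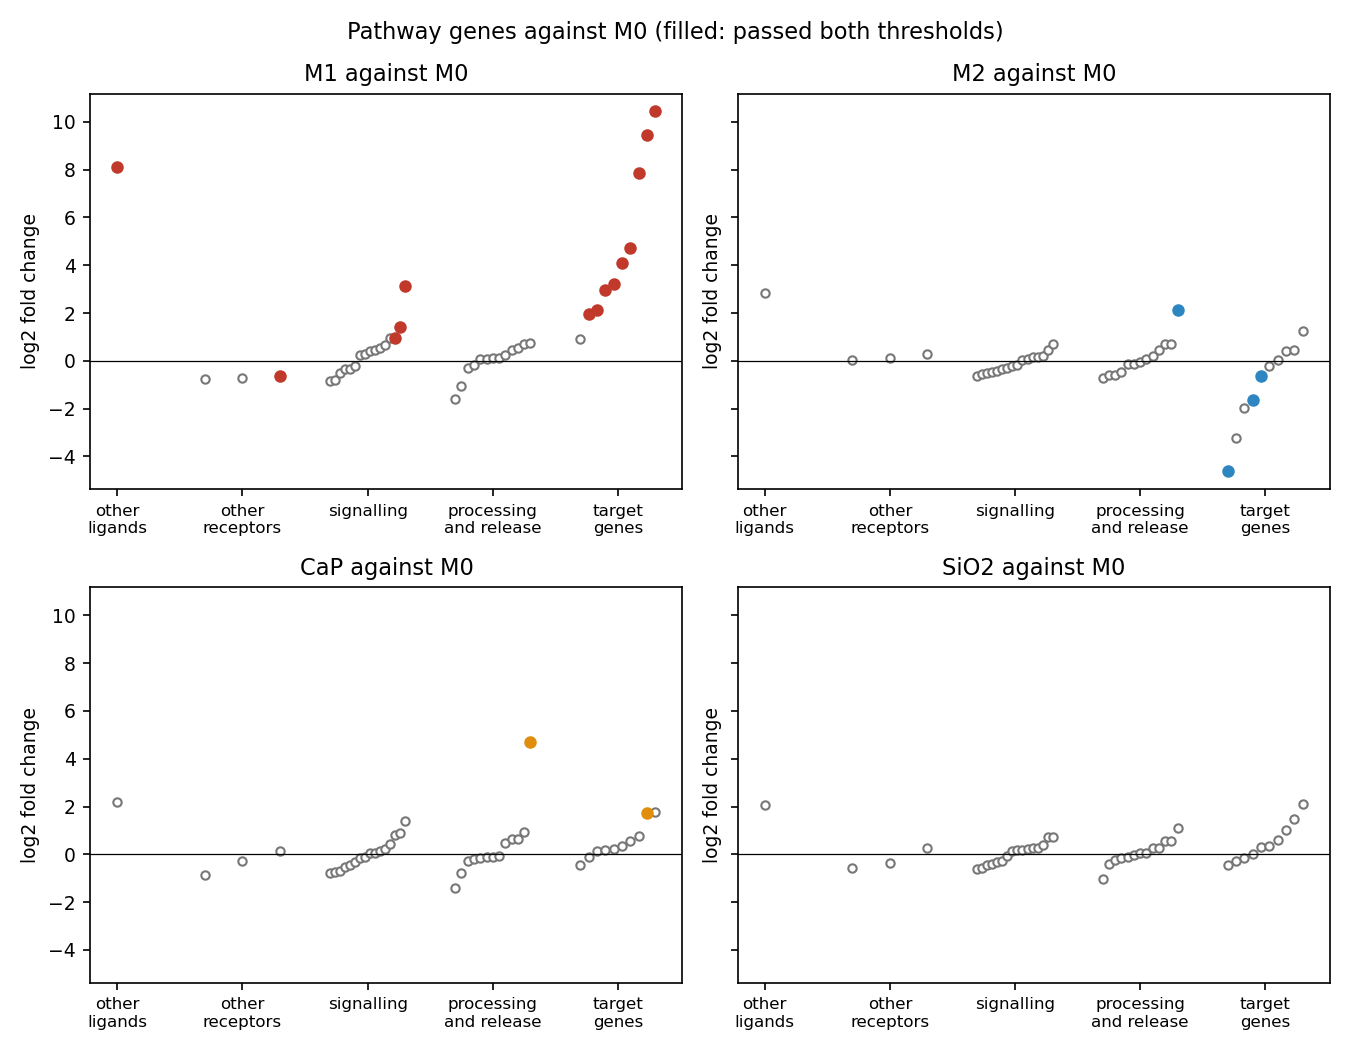
Log2 fold change against M0 of the 43 pathway genes that passed the filter, in 5 lists, 1 panel per group; each point is a gene, sorted by its value within its list, and filled points passed both thresholds. The target genes spread up to 10.4 in M1, a fitted value for *Il6* that is no bound since it had at most 2 counts in M0, and reach down to -4.62 in M2, while *Serpinb1a* at 4.70 lies furthest from 0 in CaP.

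Genes with the most similar pattern over the 15 libraries were named for each member that passed the filter, by Pearson's correlation of log2 CPM among the genes with at least 5 CPM in a group. The libraries fall into 5 groups with M1 far from the rest, so a high value says mainly that a gene separates the groups alike, and it is given as a description. *Il1a* was most like *Lix1* and *Wfdc21* (both 0.99) and *Il1b* like *Wfdc21* and *Zfp811* (both 0.99). *Il1rn*, with its intermediate levels in both microrod groups, was most like *Igf2bp2* and *Plpp1* (both 0.97, with rank correlations of 0.889 and 0.929). The receptors and *Il18* had looser neighbours: *Arhgap12* (0.90) and *Map3k12* (0.89) for *Il1rap*, *Acadm* (0.95) and *Pigx* (0.94) for *Il1r2*, and *Fcrl1* and *Clec5a* (both 0.92) for *Il18*. By rank correlation these genes stood between rank 4 (*Wfdc21* for *Il1a*) and rank 1930.5 (*Clec5a* for *Il18*) of about 10727 genes, so the choice depended on the measure.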

How the data were processed

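Poly-A RNA of MH-S cells was made into Smart-seq2 libraries by the authors, sequenced as paired-end reads, aligned and quantified on build GRCm39 by STAR and Salmon within nf-core/rnaseq, and deposited as 1 table of raw counts, whole numbers per Ensembl gene without normalization. Salmon estimates counts, so the deposited values may be rounded estimates. Libraries lack molecular identifiers, so floors cover counting error only. Columns were matched to samples by name, and 0 columns were left unused. Symbols and exon lengths came from a GENCODE annotation of build GRCm38, and 51487 of 78317 identifiers received a symbol.

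Tests were run with edgeR 4.0.16 under R 4.3.3 (filterByExpr by group, TMM, quasi-likelihood test in 1 fit of 15 libraries, Benjamini-Hochberg over 16654 genes). The same steps were also run on simulated data. DESeq2 1.42.0 and further settings were alternatives. CPM are relative to the TMM-scaled library. A group with at most 3 counts in every library is at the floor, and a fold against it uses the mean over the group's libraries of the CPM that 3 counts make.

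The members and lists were chosen with earlier results of these data known. Pathway genes are named if they are among the 3 called genes with the largest change in each direction per list in M1 against M0, 2 in M2, or called in a microrod comparison. Replicates of each group differed by more than sampling noise. The planned ratio of Il1r2 to Il1r1 is not reported, since Il1r1 was at the floor in 4 of 5 groups. Proteins were not analysed here.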

Additional observations from a re-analysis of the deposited data

How the results depend on the processing

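The members' log2 fold changes under alternative settings were tallied for the comparisons against M0 and between the microrods. In the other comparisons only members called in the fit reported were tallied, so calls gained there are not counted. *Il1a* entered only in comparisons that include M1. Of the values tallied, 900 kept their direction and their side of the threshold, 42 lost a call, 3 gained one and 13 changed sign. In M1 against M0, 4 members were called under all settings but thinning (3) and 5 of the fits without 1 library (3). The number of members called in M2 against M0 was 2 with DESeq2 and 0 with the replicate block, after thinning every library to the size of the smallest, or with only the 6 libraries compared, and 0 to 2 without 1 library. It was 0 in CaP against M0 with only the 6 libraries, and in SiO2 against M0 0 with only those 6 or the 9 M0, CaP and SiO2 libraries, and 0 to 1 without 1 library. In CaP against M2 it was 1 after thinning or with only the 6 libraries, and 1 to 3 without 1 library. *Il18* was gained in that comparison without M2 replicate 2, and *Il1r2* without M2 replicate 3. In SiO2 against M2 the number called was 1 with a filter of at least 10 counts in at least 3 libraries or with the replicate block. It was also 1 after thinning or with only the 6 libraries, and 1 to 3 without 1 library. In M2 against M0 DESeq2 called 7 pathway genes and 956 genes in all, beside 4 and 687 in the fit reported. In CaP against M0 it called 5 and 438, beside 2 and 109. Among the log2 fold changes tallied and the ratios, the sign changed only for values that were not called. These were *Il1b* in M2 against M0 (0.079 after thinning, -0.59 to 0.080 without 1 library), *Il1b* in CaP against M0 (-0.011 with DESeq2, -0.18 after thinning, -0.22 to 0.31 without 1 library) and *Il1rap* in CaP against M0 (0.027 after thinning, -0.27 to 0.064 without 1 library). They also included *Il1rap* in CaP against SiO2 (0.0085 after thinning), *Il1rap* in SiO2 against M0 (-0.026 to 0.29 without 1 library), *Il1rn* in M2 against M0 (-4.2e-05 to 0.28) and the ratio of *Il18bp* to *Il18* in M1 against M0 (-0.22 to 0.82). Whether replicate numbers pair the libraries is not known. The median correlation was -0.0051 over 30 same-numbered pairs (range -0.70 to 0.60) and 0.0049 over pairs with different numbers. Of the same-numbered pairs 14 correlated above 0.1, and 8 of 15 libraries correlated best with their own number. With the replicate block, *Il1rap* lost its call in M2 against M0 (adjusted p = 0.0548 from edgeR) and in SiO2 against M2 (0.0836), *Cxcl2* in CaP against M0 (0.0926), *Sigirr* in M1 against M0 (0.0590) and *Nfkbia* in M2 against M0 (0.0794). The count of all genes called depended on the setting, from 7 with only the 6 libraries to 968 with no filter in CaP against M0 (109 in the fit reported), from 1 to 205 in SiO2 against M0 (44), from 2 to 104 in CaP against SiO2 (3), from 98 to 1361 in M2 against M0 (687) and from 1511 to 3394 in M1 against M0 (2342). The causes were not tested. Depth limits *Il18bp*, *Il1r1* and *Il1b* outside M1, whose libraries held 0 to 52 counts.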
